A study of Rattus norvegicus with 6 samples.

Results

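Myostatin (Mstn), its antagonist follistatin (Fst), the ligands Tgfb1 and Tgfb2 and the receptors Tgfbr1 and Tgfbr2 were followed in rat tibialis anterior muscle after delayed nerve repair. Every probe set whose platform annotation gives 1 of these symbols alone was taken, which gave 8 of the 15923 probe sets on the array, for 5 of its 10412 named genes. Fst, Tgfb2 and Tgfbr1 had 2 probe sets each, Mstn and Tgfb1 had 1 each, and no probe set carried the symbol Tgfbr2 alone, so that gene has no value here. The 3 animals, numbered 4, 5 and 6, were male Wistar rats aged 8 weeks. In each, under ketamine and xylazine, the peroneal nerve was cut and sewn onto the biceps femoris, another muscle. Its stumps were joined 4 weeks later, and survival lasted 8 weeks, from a starting point that the labels leave unstated. The ipsilateral muscle of each animal was compared with its contralateral muscle, which makes 6 libraries, 3 per group. The control muscle thus belongs to an animal that had undergone the same operation and anaesthesia.

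Myostatin is a secreted member of the TGF-beta family, made chiefly by skeletal muscle, that restrains muscle growth. It is released from a latent precursor and signals through type II and type I activin receptors to Smad transcription factors. Follistatin binds myostatin and activins and keeps them from their receptors. The TGF-beta ligands signal through Tgfbr2, which recruits and activates Tgfbr1, and are known in muscle for their part in fibrosis and in restraining myoblast differentiation.

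Intensities are on a linear scale that had been adjusted to a common trimmed mean of about 150 per array, and the array medians ran from 60.2 to 66.6. Differences are log2 of ipsilateral over contralateral intensity after adding a pseudocount of 15.8, which understates differences of dim genes. Each comes with limma's moderated standard error (SE) and its 95% interval, from a fit to 3 pairs. limma draws the variance of each probe set toward that of probe sets of similar intensity. The SE is therefore not the spread between the 3 animals, which the values per animal show. A probe set was tested if its log2 values averaged above 5.86, an intensity of 42.4, and 6 of the 8 member probe sets, from 3 genes, passed this filter. All 8 skeletal muscle fibre markers passed it, with mean intensities of at least 2059 on the brightest probe set of each. Animal 4 stood apart from the others. Over the 9519 tested probe sets its within-animal differences correlated with those of animals 5 and 6 at -0.012 and -0.17, against 0.42 between animals 5 and 6, as a description across genes. The cre hybridisation spike averaged 2289 and 2772 on its arrays and 3503 to 4642 on the other 4. Its ipsilateral library also held the highest intensity of the sperm protamine Prm1, at 617 against 39.5 to 248 in the others. The 3′ to middle actin ratio, a sign of RNA quality, was 2.77 in the contralateral library of animal 4 and highest, at 2.87, in the ipsilateral library of animal 6, against 1.36 to 1.68 in the other 4. For the members the difference without animal 4 is given too, and for other genes where leaving out an animal moved a value by over 1.5 times. For Tgfbr3 and Fn1 the values per animal are given.

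Among the members, Tgfb2 was the gene whose ipsilateral values lay above its contralateral values without overlap, on both of its probe sets. Its mean ipsilateral intensity was 1.32 and 1.54 times the contralateral one on 1387172_a_at and 1388011_a_at. The log2 differences with the pseudocount correspond to 1.29 and 1.44 times. Fst was higher in animals 5 and 6 and slightly lower in animal 4. Tgfbr1 gave differences of opposite sign on its 2 probe sets. Mstn and Tgfb1 were too dim to be tested. None of the 6 tested member probe sets reached a Benjamini-Hochberg adjusted p under 0.05 in limma's paired fit, where 0 of 9519 probe sets (0%) did. At an unadjusted p under 0.05, 2 of the 6, 1 each of Fst and Tgfb2, were higher, where the share over all tested probe sets was 3.57%, and 0 were lower, where that share was 2.78%. Of the 6, 3 were higher in all 3 animals, against 12.3% of all tested probe sets, and 0 were lower in all 3, against 15.1%. At an unadjusted p under 0.05 without animal 4, the same 2 probe sets were higher. Without animal 5 they were the 2 of Tgfb2, and without animal 6 there were 0. The shares over all tested probe sets in these fits were not computed, so these counts have no background to be read against. With only 2 animals to match, 5 of the 6 were higher and 1 lower without animal 4, where 29.2% and 31.8% of all tested probe sets were. Without animal 5 they were 3 and 0 (all tested, 20.9% and 22.7%), and without animal 6 also 3 and 0 (21.6% and 28.3%). The 2 probe sets of a gene share their RNA and are not separate evidence.

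**Figure D1:**
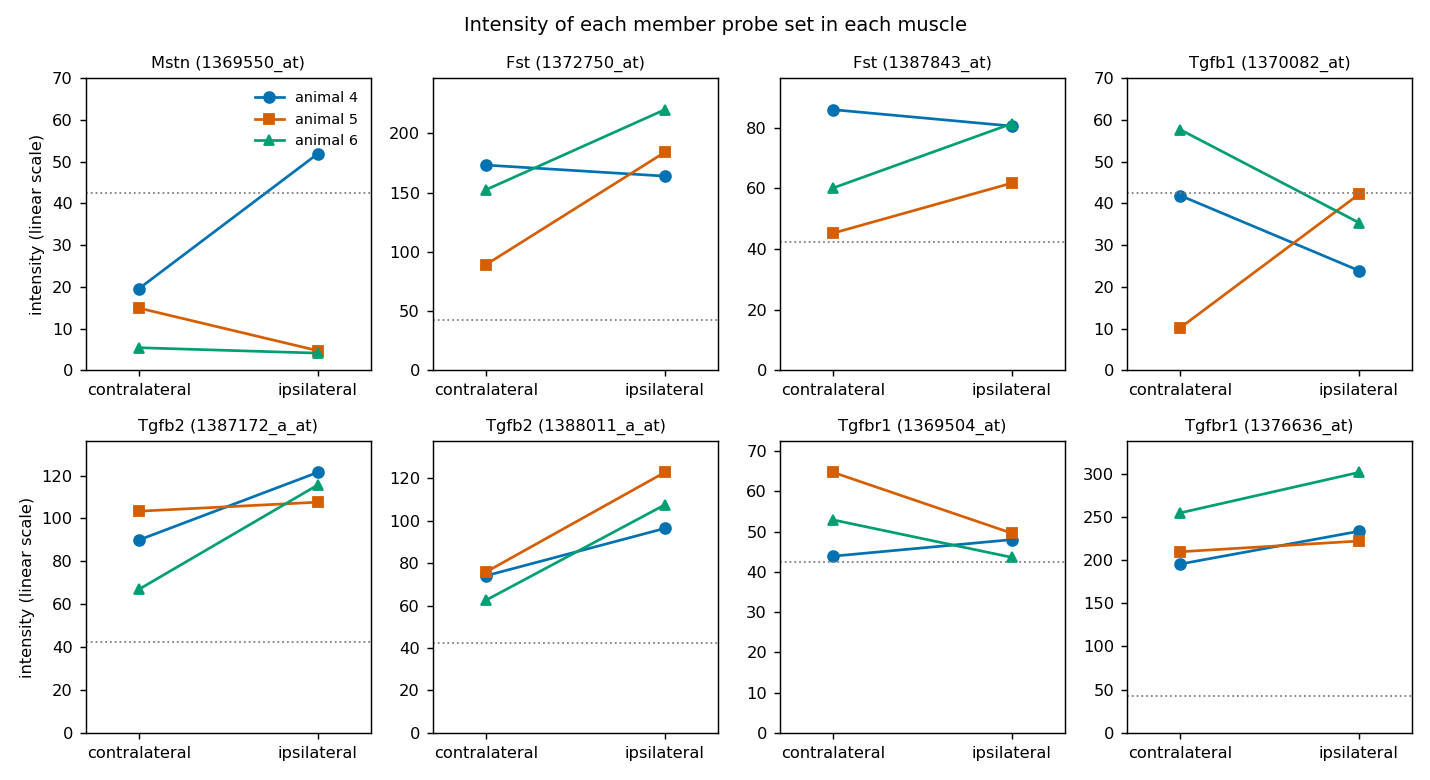
Intensity (linear scale, from 0) of the 8 member probe sets in the contralateral and ipsilateral muscle, 1 panel per probe set, with a line joining the muscles of each animal and a dotted line at the filter intensity of 42.4. On both Tgfb2 probe sets all ipsilateral points lie above all contralateral ones, while Mstn lies above the dotted line in a single library.

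Mstn was at the low end of the array in most libraries. Its probe set 1369550_at gave contralateral intensities of 19.6, 14.9 and 5.4 for animals 4, 5 and 6. The ipsilateral intensities were 51.9, 4.7 and 4.1 in the same order. Only the ipsilateral library of animal 4 exceeded the filter intensity, and the groups overlapped. Mean intensities were 13.3 ± 7.23 contralaterally and 20.2 ± 27.4 ipsilaterally (SD, n = 3). In the fit without the filter the log2 difference was 0.09 (SE 0.29, 95% interval -0.61 to 0.79), and the values for animals 4, 5 and 6 were 0.94, -0.58 and -0.09. Without animal 4 it was -0.34, without animal 5 it was 0.42 and without animal 6 it was 0.18, so its direction rests on that animal, whose ipsilateral library also had the highest Prm1. The part of that library's other features in this value was not tested.

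Tgfb1, the TGF-beta ligand most studied in fibrosis, was also below the filter. Probe set 1370082_at read 41.9, 10.2 and 57.7 in the contralateral muscles of animals 4, 5 and 6. The ipsilateral muscles read 23.9, 42.2 and 35.4. All 3 ipsilateral values lay inside the contralateral range. The means were 36.6 ± 24.2 and 33.8 ± 9.25 (SD, n = 3). The log2 difference in the fit without the filter was 0.03 (SE 0.36, 95% interval -0.85 to 0.91), made up of 1.16 in animal 5 and -0.54 and -0.52 in animals 4 and 6. Without animal 5 it was -0.53, without animal 4 it was 0.32 and without animal 6 it was 0.31. The interval spans differences of either sign that exceed those measured for Tgfb2, so no statement on a difference in Tgfb1 can be made at this signal.

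Tgfb2 encodes a TGF-beta ligand that binds Tgfbr2 tightly only with the help of the co-receptor betaglycan (Tgfbr3). A stretch of its promoter is shown because Tgfb2 was the member whose groups did not overlap on either probe set, and because the window holds a match to an E-box, a motif bound by basic helix-loop-helix factors. It lies on the minus strand at chr13:100792897-100792926 (RefSeq, build GRCr8), is written 5′ to 3′, and has the match in capitals, which begins 229 bases before the start site used by the table.
Tgfb2 upstream stretch: cactcatccacaCACGTGtggaaggcaggg
Windows of 250 bases before to 50 after the start were found for Tgfb1, Tgfb2, Tgfbr1 and Tgfbr2. They were searched on both strands for CACGTG (E-box), GTCTAGAC and CAGACA (Smad elements), TGACGTCA (cAMP response element), TGANTCA (AP-1 site) and GGGCGG (GC box). Over all 33469 promoter windows these motifs were present in 6.42%, 0.197%, 21.1%, 1.83%, 7.33% and 33.1%, in that order. The Tgfbr1 window held 3 GC boxes and the Tgfbr2 window held 1, and these letters were not otherwise found in the 4 windows apart from the E-box of Tgfb2. A match describes the sequence and does not show a binding site.

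On probe set 1388011_a_at the contralateral intensities of Tgfb2 were 74.1, 75.9 and 62.6 for animals 4, 5 and 6. The ipsilateral ones were 96.4, 122.8 and 107.5. The lowest ipsilateral value thus exceeded the highest contralateral one. The means were 70.9 ± 7.22 and 109 ± 13.3 (SD, n = 3), a log2 difference of 0.52 (SE 0.16, 95% interval 0.17 to 0.87). The within-animal differences were 0.32, 0.60 and 0.65 in animals 4, 5 and 6. The unadjusted p in limma's fit was 0.00785 and the adjusted p over all tested probe sets was 0.545. Leaving out 1 animal at a time gave differences of 0.46 to 0.62, and without animal 4 the adjusted p was 0.11.

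The other Tgfb2 probe set, 1387172_a_at, gave 90, 103.4 and 67 contralaterally and 121.5, 107.6 and 115.6 ipsilaterally in animals 4, 5 and 6. Here too the groups did not overlap, though in animal 5 the values of both muscles lay close together. The means were 86.8 ± 18.4 and 115 ± 6.98 (SD, n = 3), a log2 difference of 0.36 (SE 0.17, 95% interval -0.01 to 0.74, limma adjusted p = 0.776). Per animal it was 0.38, 0.05 and 0.67, and the mean was 0.36 without animal 4 and 0.21 without animal 6. Both probe sets thus agreed in direction in all 3 animals and differed in the size of the difference in animal 5. Non-overlap with the ipsilateral group higher was found for 4.74% of all tested probe sets, and for 2 of the 6 tested member probe sets, both of Tgfb2.

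Fst was measured by 2 probe sets that gave the same direction in each animal. On 1372750_at, the contralateral intensities were 173.3, 89.3 and 152.5 for animals 4, 5 and 6. The ipsilateral intensities were 164, 184.1 and 220.1. Animals 5 and 6 were higher ipsilaterally and animal 4 was nearly level, and the groups overlapped. The means were 138 ± 43.7 and 189 ± 28.4 (SD, n = 3). The log2 difference was 0.45 (SE 0.20, 95% interval 0.004 to 0.89), with -0.07, 0.93 and 0.49 in animals 4, 5 and 6. Its unadjusted p in limma's fit was 0.0483 and its adjusted p 0.776. It was 0.71 without animal 4, at an adjusted p of 0.0674, and 0.21 without animal 5, so that its size rests on which of these animals is counted. For the other probe set, 1387843_at, the intensities were 85.9, 45.2 and 60.1 contralaterally and 80.5, 61.7 and 81.3 ipsilaterally. It gave a smaller difference of 0.21 (SE 0.17, 95% interval -0.17 to 0.58), with -0.08, 0.35 and 0.36 per animal, and 0.35 without animal 4 and 0.13 without animal 6. In both probe sets the contralateral muscle of animal 5 had the lowest value and the contralateral muscle of animal 4 the highest contralateral one.

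Tgfbr1, the type I receptor kinase for the TGF-beta ligands, had 1 probe set well above the filter and 1 near it. Probe set 1376636_at read 195.4, 209.6 and 254.6 contralaterally and 233.3, 222 and 301.4 ipsilaterally in animals 4, 5 and 6. All 3 animals were higher ipsilaterally, by 0.24, 0.08 and 0.23, but the groups overlapped, since animal 6 was high in both muscles. The log2 difference was 0.18 (SE 0.15, 95% interval -0.15 to 0.52, limma adjusted p = 0.847), and 0.15 without animal 4. Probe set 1369504_at lay close to the filter intensity, at 43.9, 64.7 and 52.9 contralaterally and 48, 49.6 and 43.6 ipsilaterally. Its difference was -0.14 (SE 0.17, 95% interval -0.52 to 0.25), with 0.10, -0.30 and -0.21 per animal, and it was -0.255 without animal 4 and -0.057 without animal 5. Over the 6 libraries the log2 values of the 2 Tgfbr1 probe sets correlated at -0.31, whereas those of Fst correlated at 0.81 and those of Tgfb2 at 0.79, as descriptions over libraries of 3 animals. The direction for Tgfbr1 therefore depended on the probe set, and both intervals include 0.

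**Figure D2:**
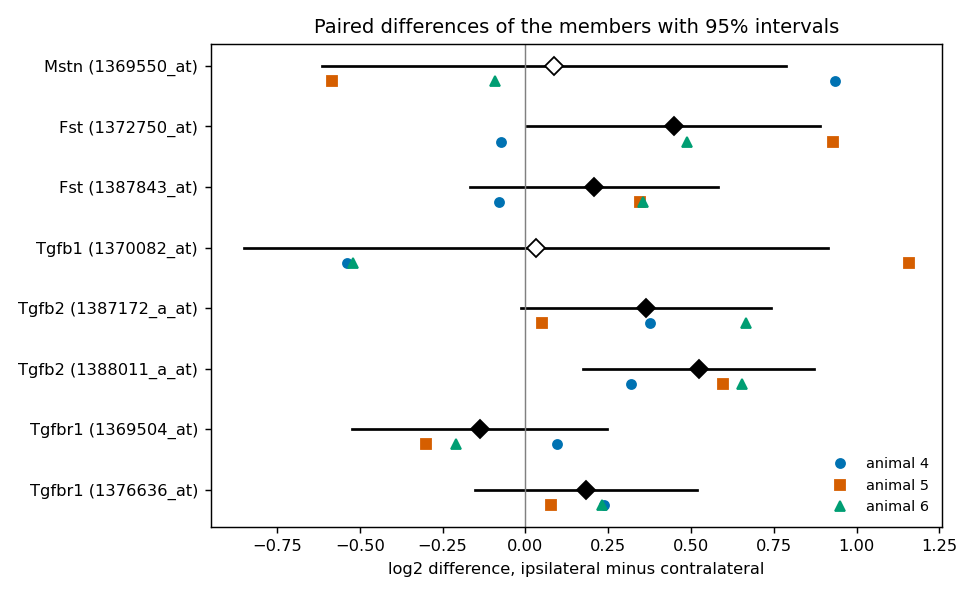
Log2 difference, ipsilateral minus contralateral, of each member probe set: diamonds are limma's estimates over 3 pairs with 95% intervals, open where the probe set was below the filter, and the coloured points under each line are the animals. Tgfb2 is the gene with all 3 animals above 0 on both probe sets, and the animals of Mstn and Tgfb1 lie on both sides of 0.

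Whether 2 members differed unequally could not be settled. In the gene pairs that were compared, the partner lay below the filter, and the planned pair of Tgfbr1 with Tgfbr2 had no value for Tgfbr2. In addition, 3 pairs of muscles allow no exact two-sided sign-flip permutation p under 0.25. The log2 difference of Fst less that of Mstn, on the probe set of each with the highest mean, was -1.01, 1.51 and 0.58 in animals 4, 5 and 6, a mean of 0.36 ± 1.27 (SD, n = 3 pairs). That of Tgfb2 less Tgfb1 was 0.92, -1.11 and 1.19, a mean of 0.33 ± 1.25 (SD). In both, the spread between animals exceeded the mean.

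The genes with the most similar profiles over the 6 libraries were taken by Pearson correlation of log2 values, as a description without a test. For Fst (1372750_at) they were Tspyl1 at 0.996, Mat2b at 0.989 and Smad1 at 0.985. Smad1 is a receptor-activated Smad of the bone morphogenetic protein branch. For Tgfb2 (1387172_a_at) they were Gpc6, a cell-surface glypican, at 0.991, Mettl7b at 0.980 and Zbtb2 at 0.965. For Tgfbr1 (1376636_at) they were Pdp1, a phosphatase that activates pyruvate dehydrogenase, at 0.979, Isoc1 at 0.977 and the antiproliferative gene Btg1 at 0.975. The profile of Mstn was nearest to Man1a1 at 0.990, the matrix gene Fbln2 at 0.985 and Cops7a at 0.984, and that of Tgfb1 to Ash1l at 0.973, Aida at 0.971 and Tmem256 at 0.971. With 6 libraries such values are common: between 30 probe sets of other genes for Tgfb2 and 137 for Fst exceeded 0.9.

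A wider list of 72 genes of the TGF-beta, activin and bone morphogenetic protein pathways was read in the same fit. Of these, 62 had a probe set and 50 were bright enough to be tested, with the brightest tested probe set taken per gene. None had an adjusted p under 0.05 in limma's paired fit. At an unadjusted p under 0.05, 6 of 50 (12%) were higher, where the background was 3.57%, and 1 (2%) was lower, where it was 2.78%. A difference above 0 in all 3 animals was found for 13 (26%, background 12.3%) and below 0 in all 3 for 5 (10%, background 15.1%). Groups did not overlap in 8 genes with the ipsilateral side higher (background 4.74%) and in 3 with it lower (background 5.78%). The list's median log2 difference was 0.08, with 0.10, 0.05 and 0.02 in animals 4, 5 and 6, against -0.02 over all tested probe sets. The count of 6 higher genes became 2 without animal 5, a fit for which the share over all tested probe sets was not computed. With only 2 animals to match, 22 genes were higher and 16 lower without animal 4, 15 and 8 without animal 5, and 17 and 8 without animal 6, where the shares over all tested probe sets are those given above.

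**Figure D3:**
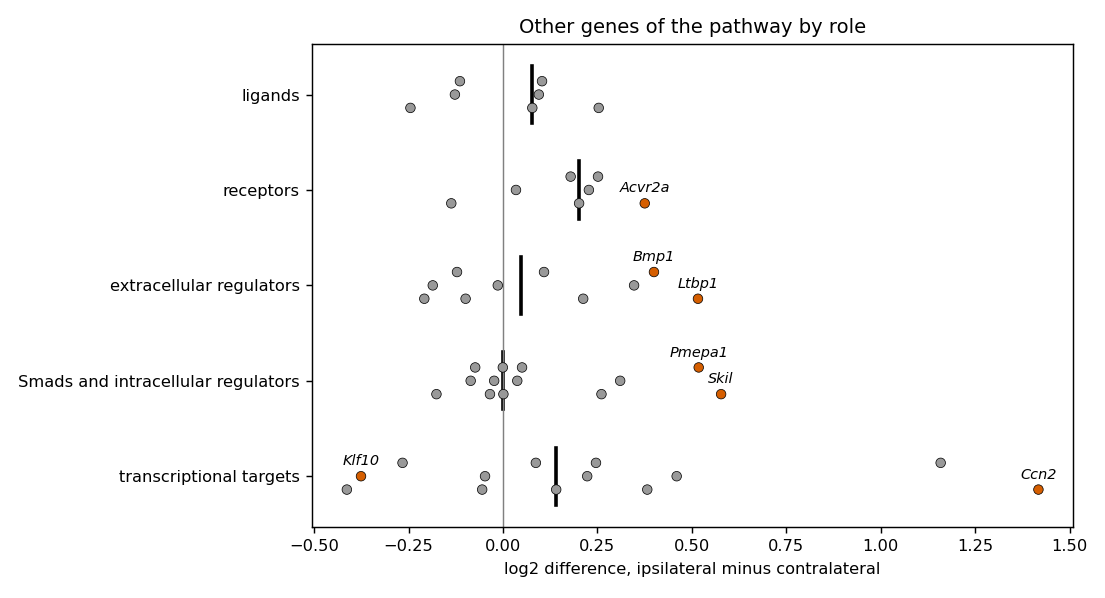
Log2 difference, ipsilateral minus contralateral, of the 50 tested genes of the wider pathway list by role, 1 point per gene, with the median of each role as a bar; orange points, named, had an unadjusted p under 0.05. Of the 7 orange points, 6 lie above 0 and Klf10 lies below it, and 0 of the 50 passed the adjusted threshold.

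Of 7 tested ligands, 0 had an unadjusted p under 0.05. In all 3 animals 1 was higher and 1 lower, where the shares over all tested probe sets were 12.3% and 15.1%. Gdf11, the closest relative of myostatin, read 45.9, 44.8 and 47.3 contralaterally and 58.6, 53.4 and 61.8 ipsilaterally, without overlap, a log2 difference of 0.25 (SE 0.16). Bmp7 differed by -0.25 (SE 0.16), with values below 0 in every animal and -0.14 without animal 5. Inha, the inhibin alpha subunit, differed by -0.13 (SE 0.17), and by -0.24 without animal 4 and 0.01 without animal 6. Of 7 tested receptors, 3 were higher and 1 lower in all 3 animals (all tested probe sets, 12.3% and 15.1%). Their median of 0.20 was the highest of the 5 roles. Acvr2a, a type II receptor for activins and myostatin, read 77, 86.2 and 43.3 contralaterally and 124.2, 92.9 and 64.4 ipsilaterally. Each animal was higher on the ipsilateral side, although the groups overlapped, and the log2 difference was 0.38 (SE 0.17, limma adjusted p = 0.776). The type I receptors Acvr1 and Acvrl1 differed by 0.25 (SE 0.17) and 0.23 (SE 0.16). The lower receptor was the co-receptor Tgfbr3. On its brighter probe set it read 89.3, 87.1 and 85.7 contralaterally and 81.2, 84.8 and 68.8 ipsilaterally, without overlap. The log2 difference was -0.14 (SE 0.15, limma adjusted p = 0.896), with -0.12, -0.03 and -0.26 in animals 4, 5 and 6. Its other probe set, 1369219_at, lay below the filter and gave 0.14, -0.48 and 0.57.

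Of 10 tested extracellular regulators, 4 were higher and 2 lower in all 3 animals (all tested probe sets, 12.3% and 15.1%). Nbl1, counted as lower, was nearly level in animal 4, at 212.8 and 212.7. Ltbp1, which tethers latent TGF-beta to the matrix, read 109.7, 69.4 and 107.3 contralaterally and 113.3, 159.9 and 153.9 ipsilaterally. The groups did not overlap, but the difference was 0.04 in animal 4 against 1.04 in animal 5 and 0.46 in animal 6, with a mean of 0.52 (SE 0.20, limma adjusted p = 0.730) that was 0.25 without animal 5. Bmp1 is a metalloproteinase that trims procollagens and can free myostatin from its propeptide. It was more even over animals, at 68.4, 79.7 and 85.4 against 105.7, 110.1 and 106.3, a difference of 0.40 (SE 0.15, limma adjusted p = 0.730). Dcn, the proteoglycan decorin that binds TGF-beta, was lower in each animal, at 3036, 3013 and 2968 contralaterally and 2845, 2327 and 2652 ipsilaterally, by a mean of -0.21 (SE 0.12), or -0.13 without animal 5.

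Of 13 tested Smads and intracellular regulators, 3 were higher and 0 lower in all 3 animals (all tested probe sets, 12.3% and 15.1%). Their median was 0.001. Skil, a Smad co-repressor whose gene is itself induced by TGF-beta, read 364.4, 280.3 and 303.1 contralaterally and 444.7, 545.5 and 445.5 ipsilaterally. All ipsilateral values were above all contralateral ones, and the log2 difference was 0.58 (SE 0.17, unadjusted p = 0.00734, limma adjusted p = 0.545). Pmepa1, a TGF-beta-induced inhibitor of Smad activation, read 154.5, 109.3 and 105.1 against 159.4, 179.7 and 205. Its difference was 0.52 (SE 0.18), the values being 0.04, 0.64 and 0.87 for animals 4, 5 and 6, and 0.34 without animal 6. Smad2, a receptor-activated Smad of the TGF-beta and myostatin branch, differed by 0.26 (SE 0.16), and the inhibitory Smad7 was too dim on all of its probe sets.

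Of 13 tested transcriptional targets, 2 were higher and 1 lower in all 3 animals (all tested probe sets, 12.3% and 15.1%). Ccn2, connective tissue growth factor, read 528.3, 197.9 and 229.4 contralaterally and 570.1, 1336.7 and 669.7 ipsilaterally, a difference of 1.42 (SE 0.37). Animals 4, 5 and 6 gave 0.11, 2.66 and 1.48, and the mean was 0.795 without animal 5 and 2.07 without animal 4. Klf10, an early TGF-beta response gene, was lower in each animal, at 317.1, 296.5 and 280.9 against 194.8, 253.9 and 232.7, by a mean of -0.38 (SE 0.16, limma adjusted p = 0.770), or -0.23 without animal 4. Cdkn1a, a cell cycle inhibitor, differed by 1.16 (SE 0.55) on its brighter probe set 1388674_at, with -0.93 in animal 4 and 3.01 and 1.40 in animals 5 and 6. Without animal 4 this difference was 2.20, and without animal 5 it was 0.23. Its other probe set, 1387391_at, lay below the filter. That one read 4.8, 6.1 and 6.3 contralaterally and 20.8, 73.2 and 120.8 ipsilaterally. Its differences were 0.83, 2.02 and 2.63 in animals 4, 5 and 6, so the sign in animal 4 depended on the probe set. Targets therefore did not share a direction. Without animal 4, where limma has 1 residual degree of freedom, 2.53% of all tested probe sets had an adjusted p under 0.05 (1.55% higher, 0.977% lower), and so had 5 of the 50 pathway genes. These were Skil, Pmepa1, Ccn2 and Cdkn1a, which were higher, and fibronectin, Fn1, which differed by -0.74. With all 3 animals the Fn1 difference was -0.41 (SE 0.21, limma adjusted p = 0.776), and its groups overlapped. Per animal it was 0.24, -0.99 and -0.49 in animals 4, 5 and 6. Fn1 was named after its value was seen. It had the opposite sign in animal 4, and so had Cdkn1a on probe set 1388674_at. Without animal 5, and likewise without animal 6, 0 pathway genes had an adjusted p under 0.05. Animal 4 was the animal whose differences correlated least with the others, so leaving it out favours agreement between the animals kept.

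**Figure D4:**
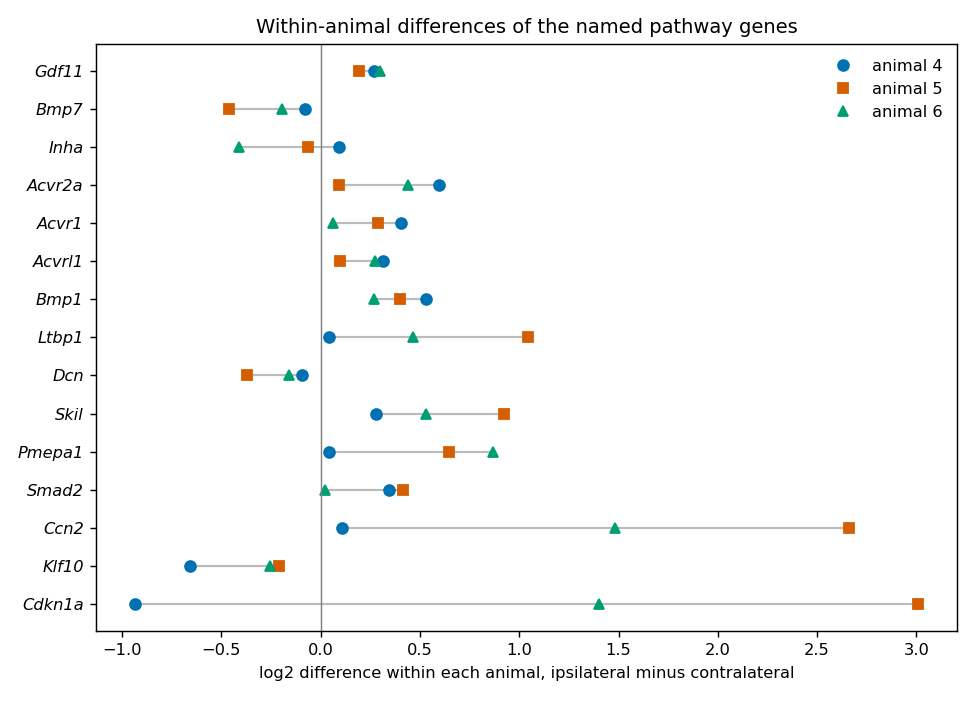
Log2 difference within each animal, ipsilateral minus contralateral, for the up to 3 genes of each role with the smallest p; points are animals and grey lines join them. Animal 4 lies nearest to 0 for Ltbp1, Pmepa1 and Ccn2 and below 0 for Cdkn1a, while Gdf11 and Bmp1 have all 3 animals close together.

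Markers of the cells that a whole muscle can hold were read on both sides, without a test of the lists. Fewer cells of a type and less RNA per cell cannot be told apart in such bulk samples. The summed intensity of 8 fibre markers ran from 39694 to 44784 contralaterally and from 32972 to 37732 ipsilaterally, with 3 of the 8 lower in all 3 animals, against 15.1% of all tested probe sets. For 4 of 6 Schwann cell markers with a probe set, the sums ran from 678 to 806 and from 880 to 934, most of it from Pmp22, at 485 ± 57.6 and 642 ± 3.25 (SD, n = 3). On the brightest probe set of each, Pmp22 and S100b were higher in all 3 animals, against 12.3% of all tested probe sets. The myelin marker Mbp was instead lower in every animal, against 15.1%, at 102 ± 27.1 and 73.7 ± 9.14 (SD, n = 3). Mag was higher in animals 4 and 5 and lower in animal 6. The other Pmp22 probe set, 1370504_a_at, was lower in animal 5, and its groups overlapped. The other Mbp probe set, below the filter, was lower in animal 5 only. The 4 of 6 endothelial markers summed to 464 to 490 and to 504 to 731. Of these, only Kdr was higher in all 3 animals, against 12.3% of all tested probe sets. Pecam1 and Eng were lower ipsilaterally in animal 6, at 36.6 against 63 and 96.8 against 136.8. Vwf was lower in animal 4, at 82 against 106.4. For 4 of 5 adipocyte markers the sums were 1023 to 1650 and 1459 to 2345, higher ipsilaterally within every animal. Most of this sum came from Fabp4 and Cfd, which were both higher in all 3 animals, against 12.3% of all tested probe sets. Plin1 and Lep lay below the filter, and Lep, at 2 to 3.9, was lower in all 3 animals. Sums of the 7 fibroblast markers overlapped, at 9011 to 10109 and 9130 to 9845, but the markers did not share a direction. Lum and Pdgfra were higher in all 3 animals, against 12.3% of all tested probe sets. Dcn and Mfap5 were lower in all 3, against 15.1%. The sums of 6 of 7 macrophage markers were 2326 to 2947 and 1809 to 2465. Of these 6, 3 were lower in all 3 animals, Cd68, Cd14 and Cd74, against 15.1% of all tested probe sets. Cd74 was nearly level in animal 4, at 1594.9 and 1594.5. Csf1r and C1qb were higher in animal 4 and lower in animals 5 and 6. Aif1, on its brighter probe set, was higher in animal 4, lower in animal 5 and nearly level in animal 6. The macrophage sum was lower ipsilaterally in animals 5 and 6 and slightly higher in animal 4. The sums of 2 of 5 satellite cell markers, neither of them Pax7 or Myf5, overlapped at 368 to 448 and 405 to 444, and no marker was at 0 in any library. The part of these cells in the differences of Tgfb2, Fst and the pathway genes was not tested.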

How the data were processed

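Total RNA of 6 tibialis anterior muscles was measured on 1 rat array each. Each deposited value is a linear intensity of 1 probe set, scaled per array before deposit, as read from the values; the software was not given in the sources used here. Titles gave the group and the animal, and the abbreviation Cont was read as contralateral. Of 15923 probe sets, 57 controls were left out and 12789 had 1 symbol. Values were used as log2(intensity + 15.8), the 20th percentile of all values, without further normalization, because array medians lay within 0.115 (limit 0.2). Probe sets above the 40th percentile of mean log2 value (9519) were fitted with limma 3.58.1 in R 4.3.3, with an intensity trend and the animal as a block, and adjusted by Benjamini-Hochberg. Probe sets below it were read from the same fit without the filter. The pairing comes from the animals. Within animals 4, 5 and 6, both muscles departed from their group means with correlations of -0.041, 0.072 and 0.13 over probe sets. The fit was tested on simulated data. Named pathway genes were the up to 3 per role with the smallest p. Fn1, Tgfbr3, Nbl1 and Smad7 were named outside this rule. The members and lists were chosen with earlier results of these data known. Symbols were checked by gene ID against a table of assembly GRCr8, which changed none. Figures used matplotlib 3.10.9 in Python 3.11.15.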

Additional observations from a re-analysis of the deposited data

How the results depend on the processing

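Of 78 member values recomputed under other settings, 75 kept their direction, and none reached an adjusted p under 0.05 (lowest 0.0674, Fst 1372750_at without animal 4). The 3 that reversed belong to the dim genes. Mstn ranged from -0.337 to 0.422 with 1 animal left out, and Tgfb1 from -0.531 to 0.318, and Tgfb1 was -0.00849 with the pseudocount at the 40th percentile. Fst less Mstn ranged from -0.215 to 1.04 and Tgfb2 less Tgfb1 from -0.0961 to 1.05. Inha ranged from -0.237 to 0.014. Without the pairing by animal (no replicate block) the member differences are identical by construction, the lowest adjusted p of a member was 0.644, and 5 pathway genes in place of 6 were higher at an unadjusted p under 0.05.

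With 1 animal left out, pathway genes called at an adjusted p under 0.05 ran from 0 to 5. Those higher at an unadjusted p under 0.05 ran from 2 to 8 and those lower from 0 to 2. For these unadjusted counts the shares over all tested probe sets were not computed. Genes higher in every animal ran from 15 to 22 and those lower in every animal from 8 to 16. The 1 gene lower at an unadjusted p under 0.05 became 0 with arrays centred on their medians and 2 when dim probe sets were kept. With quantile normalization 3 genes in place of 5 were lower in every animal. No comparison of Tgfbr1 with Tgfbr2 was run, since Tgfbr2 has no probe set of its own here. The low signal of Mstn and Tgfb1 limits their values.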
